A study of Mus musculus with 24 samples.

Results

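The 33 genes described here encode the clotting factors, their cofactors and inhibitors, the contact system, the fibrinolytic proteins and the enzymes of the vitamin K cycle. They were chosen by symbol from a table of 23411 mouse genes, and all 33 symbols were found. Liver poly(A) RNA was sequenced from 24 male mice aged 16 to 20 weeks on a mixed 129/Sv and C57BL/6 background, with 3 mice in each of 8 groups. WT mice, which express P1-HNF4α in the adult liver, were compared with α7HMZ mice, exon-swap animals that make P2-HNF4α alone, in all tissues and not only in the liver. Fed mice of both genotypes, with chow ad libitum, were taken in the light phase (10:30 and 13:30) and in the dark phase (20:30). Mice of each genotype taken at 10:30 after a 12-h fast made up the last pair of groups. The comparison of genotypes asked which of these genes depend on the HNF4α isoform, and the times and the fast asked whether that dependence varies with the clock and with feeding. The fed 10:30 livers of both genotypes and the fasted WT livers were sequenced on one flow cell and the other livers on another. A difference that involves fasted α7HMZ livers and another group at 10:30 thus cannot be told apart from the flow cell. The same holds for a difference between fed livers at 10:30 and fed livers at the later times.

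Coagulation is a cascade in which each serine protease is activated by the one before it, on membranes and with the help of cofactors, until thrombin (F2) cuts fibrinogen to fibrin. The liver secretes most of the plasma proteins involved. Hepatocytes make the vitamin K-dependent factors, fibrinogen, the contact factors and the serpins that inhibit the proteases, while F8, Vwf and Thbd are mainly products of endothelial cells. HNF4α is a nuclear receptor of hepatocytes, and promoters of several clotting factor genes are textbook sites of its binding.

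The libraries held 8545959 to 28445590 counts. One α7HMZ fed 10:30 liver had 50.8% of its counts on ribosomal RNA (Rn45s), against at most 3.76% in the others, which lowered the depth left for other genes. WT replicate 2 and α7HMZ replicates 1 and 3 at 20:30 stood apart in the bile duct keratin Krt19 (18.3, 14.3 and 12.5 CPM) and the pancreatic gene Ctrb1 (4.999, 1.87 and 3.32 CPM). Hnf4a itself was counted over the whole gene, at 575 to 1352 CPM (counts per 1e6 counts, scaled by trimmed mean of M values, TMM). Such counts do not separate P1 from P2 transcripts, so they do not check the genotype labels. Between α7HMZ and WT its log2 fold change was 0.46 at fed 10:30, -0.20 at 13:30 and 0.50 at 20:30 (edgeR adjusted p = 0.0629, 0.53 and 0.0443). In fasted livers it was 0.60 (edgeR adjusted p = 0.0154), across flow cells. The part of this total in the values below was not tested. Hepatocyte markers were abundant in every liver, with Alb, the albumin gene, at 56940 CPM or more. With 3 mice per group, the p-values weigh a difference against the spread between mice, which was estimated jointly over all groups of a fit.

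F7, F10 and Proz lie head to tail on the plus strand of chromosome 8 in mm10, with 1498 bases between F7 and F10 and 4237 bases between F10 and Proz, and F9 lies on chromosome X. These 4 genes carry the HNF4α-type letters, or the 2 largest genotype differences described below, and their RefSeq promoter windows (GRCm38.p6, plus strand, 250 bases before to 50 after the transcript start) are therefore shown, for F9 at chrX:59999214-59999513, F7 at chr8:13025784-13026083, F10 at chr8:13037058-13037357 and Proz at chr8:13060658-13060957. Capitals mark CAAAGGTCA, letters found in binding sites of HNF4α, read on either strand. These RNA libraries do not measure binding of HNF4α to the windows.
F9: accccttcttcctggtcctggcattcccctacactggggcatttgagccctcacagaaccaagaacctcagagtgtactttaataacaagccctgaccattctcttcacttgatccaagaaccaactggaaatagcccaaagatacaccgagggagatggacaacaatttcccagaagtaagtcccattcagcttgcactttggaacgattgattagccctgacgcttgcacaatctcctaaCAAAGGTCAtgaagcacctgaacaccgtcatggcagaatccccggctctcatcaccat
F7: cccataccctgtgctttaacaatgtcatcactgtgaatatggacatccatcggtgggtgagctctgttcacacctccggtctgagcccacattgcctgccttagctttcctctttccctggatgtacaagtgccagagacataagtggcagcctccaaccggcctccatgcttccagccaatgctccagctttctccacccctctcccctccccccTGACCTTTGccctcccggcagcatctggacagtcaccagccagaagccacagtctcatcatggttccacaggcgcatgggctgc
F10: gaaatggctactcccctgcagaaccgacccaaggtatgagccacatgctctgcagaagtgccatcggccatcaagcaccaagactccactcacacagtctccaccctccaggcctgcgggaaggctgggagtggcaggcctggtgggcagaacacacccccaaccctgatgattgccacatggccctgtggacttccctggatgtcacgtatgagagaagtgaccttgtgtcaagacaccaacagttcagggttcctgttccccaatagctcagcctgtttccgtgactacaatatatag
Proz: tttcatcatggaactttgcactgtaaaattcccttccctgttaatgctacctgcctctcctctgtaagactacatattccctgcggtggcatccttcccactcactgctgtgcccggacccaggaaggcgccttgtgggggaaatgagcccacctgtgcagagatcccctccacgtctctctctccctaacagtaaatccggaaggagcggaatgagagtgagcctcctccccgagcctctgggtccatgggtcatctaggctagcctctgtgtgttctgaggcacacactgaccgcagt

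Windows were found for 26 of the 33 genes (27 windows, since Tfpi has 2). CAAAGGTCA occurred in 2 of the 27, against 157 of 32851 RefSeq promoter windows of the same length (0.478%). In F9 the letters end on the first base of the transcript, and in F7 they lie on the minus strand, 34 to 26 bases before it. The other HNF4α-type word searched, CAAAGTCCA, occurred in 0 of the 27 windows and in 156 of 32851 (0.475%). F10 and Proz held neither word in this window.

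In fed WT livers, the fibrinogen chains and the adhesive plasma protein vitronectin (Vtn) headed the set. Per kilobase of exon (GENCODE exons), the level of Fgg had a median of 1523 CPM per kb (range 966 to 1799 over 9 livers), Vtn 1118 (852 to 1382), Fga 1116 (871 to 1819) and Fgb 1010 (674 to 1301). These ranges overlapped, and their order did not exceed the spread between livers. Plasminogen (Plg), the precursor of the protease that dissolves fibrin, followed at 629 CPM per kb (482 to 711), with kininogen 1 (Kng1) at 620 (482 to 740). Thrombin (F2) and Hrg, a plasma glycoprotein that binds plasminogen and heparin, were nearly level per kilobase, at 386 (297 to 482) and 382 (334 to 538) CPM per kb. Their exon lengths were 4594 and 1994 bases. Before division by length, F2 had 1364 to 2214 CPM and Hrg 526 to 1072 CPM over the fed livers of both genotypes. The order of genes per kilobase thus depends on the exon lengths used, and how far it does was not tested. Among the serine proteases of the cascade, F10 stood at 160 CPM per kb, F9 at 76.4, F7 at 56.1 and F11 at 38.8. The lowest levels belonged to genes that cells other than hepatocytes also make, with F8 at 2.11, Tfpi at 1.22, F3 at 1.04, Thbd at 1.01, Vwf at 0.448 and Plat at 0.062 CPM per kb. Plat, which encodes tissue plasminogen activator, had 0 to 19 counts per library, so small changes in it were not detectable at this depth.

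Averaged over the 3 fed times, 19 of the 33 genes had lower levels in α7HMZ livers and 0 had higher levels (edgeR quasi-likelihood test, adjusted p under 0.05), while of all 13334 tested genes 13.2% were lower and 13.3% higher. At an unadjusted p under 0.05 the counts were 22 lower and 0 higher, and DESeq2 called 21 lower and 0 higher. The median log2 fold change of the set was -0.25, against 0.03 for all tested genes. This split depended on the scaling. With full quantile offsets, which give every library the same distribution of values, 5 genes were lower and 5 higher, and after an added GC step, which follows what the methods describe, 6 were lower and 7 higher. Proz, F10, F9, Pros1 and Serpinf2 were lower under all 29 alternative fits.

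**Figure D1:**
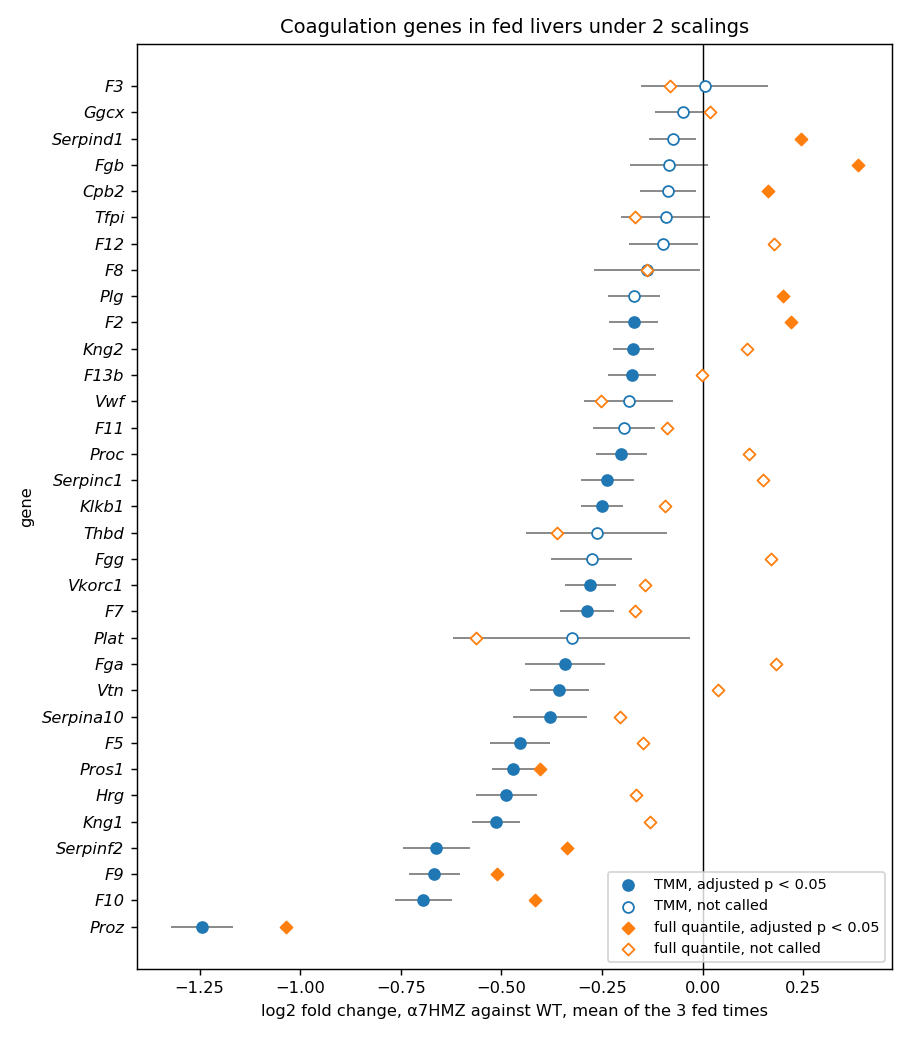
Log2 fold change between α7HMZ and WT livers (x axis, mean over the fed times) for each of the 33 genes (y axis). Circles are TMM-scaled values with their standard errors, diamonds are full quantile values, and filled symbols passed an adjusted p of 0.05. Proz, F10, F9, Serpinf2 and Pros1 lie below 0 with filled symbols under both scalings, whereas F2 is lower under TMM (-0.17) and higher under full quantile (0.22).

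The effect of the scaling went with abundance. Under TMM, the 116 tested genes above 1000 CPM had a median fed log2 fold change of -0.25, and the 8 coagulation genes among them -0.26. The 1190 genes between 100 and 1000 CPM had a median of -0.11, and the 15 coagulation genes in that class -0.28. Under full quantile offsets the medians of these classes were 0.15 and 0.18 above 1000 CPM, and 0.07 and -0.14 between 100 and 1000 CPM, in the same order. The median of the most abundant coagulation genes was thus within 0.1 of that of all genes of their abundance, below 0 under the first scaling and above 0 under the second. Values below are on the TMM scale unless a sentence says otherwise.

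**Figure D2:**
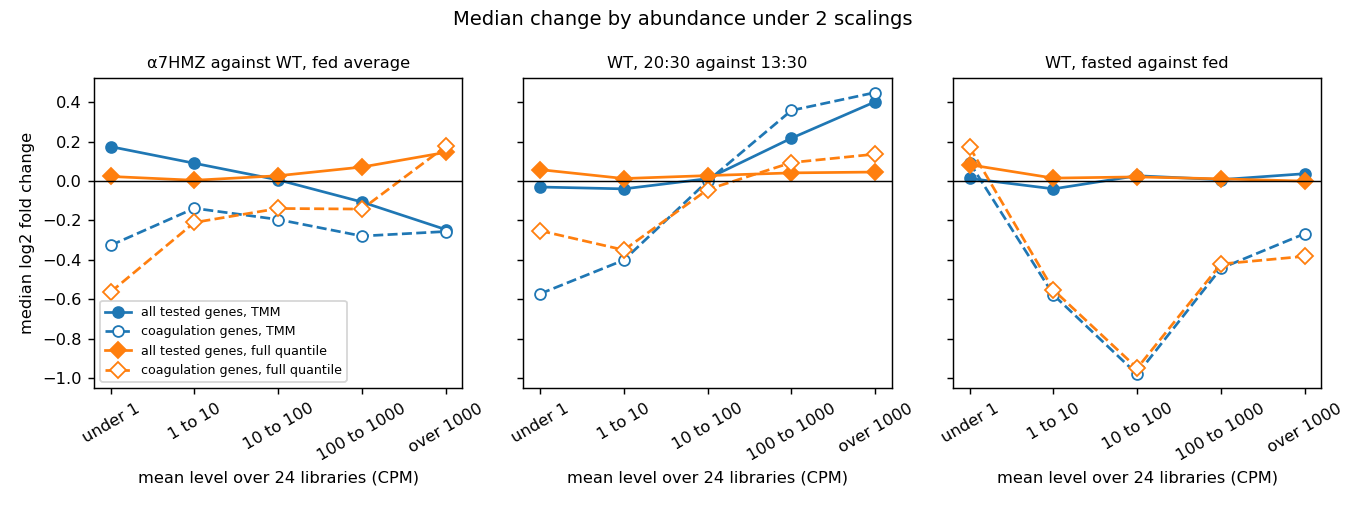
Median log2 fold change (y axis) of all tested genes (solid lines) and of the coagulation genes (dashed lines) by mean level over the 24 libraries (x axis, CPM classes), in 3 comparisons. Circles are TMM values and diamonds full quantile values. Above 1000 CPM the fed genotype medians are negative under TMM (-0.25 for all genes, -0.26 for coagulation genes) and positive under full quantile offsets (0.15 and 0.18), while in WT livers the fasting medians of the coagulation genes in the classes above 1 CPM are negative under both.

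All 7 vitamin K-dependent genes were lower in fed α7HMZ livers under TMM, although F2 turned higher under full quantile offsets (0.22) and Proc had a value of 0.12 there. These proteins carry glutamates that are carboxylated so that they can bind calcium and membranes. Protein Z (Proz), the cofactor that brings the protein Z-dependent inhibitor to factor Xa, fell most. At 10:30 the WT livers held 432, 421 and 425 CPM of Proz mRNA and the α7HMZ livers 144, 184 and 150 CPM. The 13:30 livers gave 378, 351 and 357 CPM (WT) against 164, 124 and 164 CPM (α7HMZ), while the 20:30 livers gave 365, 302 and 410 CPM against 183, 183 and 153 CPM. Every fed α7HMZ liver lay below every fed WT liver, which held for 322 of 13334 tested genes, with 153 separated the other way. The log2 fold change was -1.24 ± 0.08 (SE, 9 livers against 9, edgeR adjusted p = 4.81e-10), and Proz fell by 57.8%.

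Factor X (F10), the protease that converts prothrombin to thrombin, was the next. At 10:30 it measured 436, 460 and 482 CPM in WT and 252, 276 and 317 CPM in α7HMZ livers, at 13:30 417, 430 and 431 against 275, 279 and 306 CPM, and at 20:30 408, 568 and 579 against 316, 279 and 290 CPM. The highest α7HMZ liver (317 CPM) was below the lowest WT liver (408 CPM). F10 fell by 38.2% (log2 fold change -0.69 ± 0.07, edgeR adjusted p = 4.66e-07). Factor IX (F9), the protease missing in haemophilia B and the gene with CAAAGGTCA at its start, measured 201, 209 and 221 CPM in WT against 108, 127 and 145 CPM in α7HMZ livers at 10:30. At 13:30 it was 169, 151 and 166 against 106, 98.4 and 106 CPM, and at 20:30 265, 232 and 253 against 177, 167 and 141 CPM. The genotypes did not overlap at any single time, and over the day WT livers at 13:30 overlapped with α7HMZ livers at 20:30. Separation at a single time was common among all 13334 tested genes. At 10:30, 2215 were lower and 2145 higher without overlap. The counts were 2368 and 2335 at 13:30, and 2195 and 2192 at 20:30. F9 fell by 37.0% (log2 fold change -0.67 ± 0.06, edgeR adjusted p = 2.28e-07).

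Protein S (Pros1), the cofactor of activated protein C, measured 69.1, 69.0 and 65.4 CPM in WT against 46.2, 42.2 and 44.4 CPM in α7HMZ livers at 10:30. At 13:30 it was 51.9, 56.3 and 57.8 against 43.4, 38.2 and 39.5 CPM, and at 20:30 66.5, 69.5 and 64.3 against 57.2, 49.3 and 50.3 CPM. The genotypes were apart at each time. Its log2 fold change was -0.47 ± 0.05 (edgeR adjusted p = 1.58e-06). F7, which starts the extrinsic pathway with tissue factor and has CAAAGGTCA just upstream of its start, moved less than its neighbours F10 and Proz, with a log2 fold change of -0.29 ± 0.07 (edgeR adjusted p = 0.00336), and the adjusted p was 0.0635 under full quantile offsets. Thus the 3 adjacent genes of chromosome 8 had values of -0.29, -0.69 and -1.24 in their order along the strand. Proc, the zymogen of the anticoagulant protease protein C (-0.20 ± 0.06), and F2 (-0.17 ± 0.06) were the smallest of the 7, and both had positive values under full quantile offsets. The F2 call was lost or turned in 21 of 29 alternative fits.

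**Figure D3:**
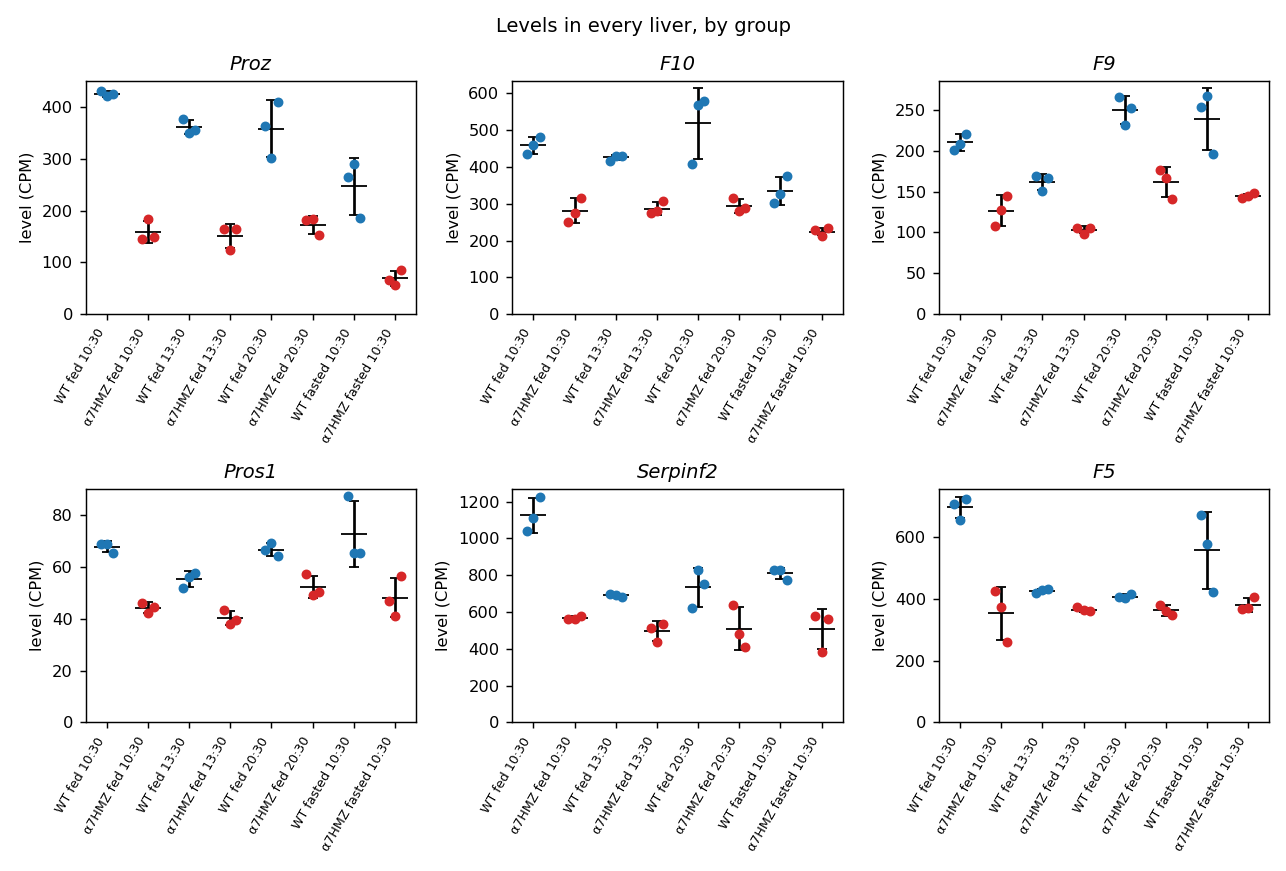
Level of 6 genes (y axis, CPM) in the 3 livers of each of the 8 groups (x axis, blue WT, red α7HMZ); the bar is the mean and the whiskers 1 SD. Proz and F10 of every fed α7HMZ liver lie below every fed WT liver, and F5 is high (657 to 725 CPM) in fed WT livers at 10:30 and near 400 CPM in WT livers at the later times. The livers at the later times were on another flow cell than the fed 10:30 livers.

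Of the 4 serpins, Serpinf2 (α2-antiplasmin, the main inhibitor of plasmin) was lower in the fed average under every setting. Its 10:30 levels were 1039, 1111 and 1225 CPM (WT) against 563, 560 and 579 CPM (α7HMZ). The 13:30 levels were 697, 694 and 683 CPM against 515, 436 and 536 CPM, and the 20:30 levels 621, 826 and 755 CPM against 639, 481 and 408 CPM. The genotypes were apart at 10:30 and 13:30 and overlapped at 20:30, where 1 α7HMZ liver (639 CPM) was above 1 WT liver (621 CPM). The fed log2 fold change was -0.66 ± 0.08 (edgeR adjusted p = 6.77e-06). Serpina10, the protein Z-dependent inhibitor of factor Xa and so the partner of Proz, had a log2 fold change of -0.38 ± 0.09 (edgeR adjusted p = 0.00432), which missed the threshold under both full quantile settings. Antithrombin (Serpinc1) was lower under TMM (-0.24 ± 0.07, edgeR adjusted p = 0.0118) and had a value of 0.15 under full quantile offsets. Heparin cofactor II (Serpind1) was not called under TMM (-0.07) and was higher under full quantile offsets (0.24).

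The contact system starts clotting on charged surfaces. Of its genes and Hrg, grouped with them here, 4 of 6 were lower in the fed average, and none passed under full quantile offsets. Kng1 stood at 1441 to 1495 CPM in α7HMZ against 2155 to 2405 CPM in WT livers at 10:30, 1258 to 1277 against 1568 to 1728 CPM at 13:30, and 1294 to 1481 against 1818 to 2203 CPM at 20:30. Every fed α7HMZ liver was below every fed WT liver (log2 fold change -0.51 ± 0.06, edgeR adjusted p = 3.01e-06), yet the value shrank to -0.13 under full quantile offsets. Hrg was also apart in all 9 livers of each genotype (-0.49 ± 0.08, edgeR adjusted p = 8.74e-05; -0.17 under full quantile offsets), and its range was 526 to 665 CPM in α7HMZ and 666 to 1072 CPM in WT livers. Plasma prekallikrein (Klkb1), which cuts kininogen, had -0.25 ± 0.05, and Kng2 had -0.17 ± 0.05, with 0.11 under full quantile offsets. Kng1 and Kng2 are close paralogs, so reads may have been split between them and both values are uncertain. F11 (-0.20 ± 0.08, edgeR adjusted p = 0.0673) and F12 (-0.10 ± 0.09, edgeR adjusted p = 0.448) did not pass.

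Of the fibrinogen chains, Fga was lower (-0.34 ± 0.10, edgeR adjusted p = 0.0142), while Fgg (-0.28 ± 0.10, adjusted p = 0.0504) and Fgb (-0.08 ± 0.10, adjusted p = 0.579) did not pass. Under full quantile offsets Fga stood at 0.18 without passing and Fgb was higher at 0.39. F13b, the carrier subunit of the fibrin cross-linker factor XIII, was lower (-0.17 ± 0.06, edgeR adjusted p = 0.0384), and 20 of 29 alternative fits lost that call. In fibrinolysis, Vtn was lower (-0.36 ± 0.07, edgeR adjusted p = 0.00119; 0.04 under full quantile offsets). Plg (-0.17 ± 0.06) and Cpb2, the carboxypeptidase that protects fibrin (-0.09 ± 0.07), did not pass under TMM, and both were higher under full quantile offsets, at 0.20 and 0.16. Vkorc1, the reductase that recycles vitamin K, was lower (-0.28 ± 0.06) in edgeR (adjusted p = 0.00257; up to 0.0726 under other settings), and Ggcx, the carboxylase that uses it, was not called (-0.05 ± 0.07). F5 was lower in the fed average (-0.45 ± 0.07), and both full quantile settings lost that call. The genes made largely outside hepatocytes were not called, with -0.14 for F8, 0.00 for F3 (tissue factor), -0.18 for Vwf, -0.09 for Tfpi, -0.26 for Thbd and -0.33 for Plat.

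At single times, the number of lower genes was 17 at 10:30, 6 at 13:30 and 11 at 20:30, with 0 higher at any of them, and the 10:30 count was 9 without the third WT library. The shares of all tested genes that were lower were 8.98%, 6.61% and 10.8%, and those higher 8.35%, 6.19% and 8.29%, in the same order. The unadjusted counts were 23 lower at 10:30, 9 lower at 13:30 and 16 lower with 1 higher at 20:30, and DESeq2 called 19, 6 and 12 lower and 0 higher. Under full quantile offsets the splits were 9 lower and 0 higher, 3 lower and 4 higher, and 4 lower and 1 higher. Of all 13334 tested genes, the same offsets called 1097 lower and 1310 higher at 10:30, and 734 lower and 878 higher at 13:30. Proz and F9 were lower at all 3 times under every setting, and F10 in all but 1 of the 13:30 settings. In 3 genes the genotype difference itself varied with time (F5, Klkb1 and Ggcx; 4.99% of all tested genes passed this test, 9 of the 33 at an unadjusted p under 0.05, and DESeq2 called 5). The count fell to 0 without any single WT 10:30 library, the third WT library at 13:30 or the second α7HMZ library at 10:30, and rose to 5 without the first α7HMZ library at 10:30, the one rich in Rn45s. The 10:30 livers were on another flow cell than the later ones, so its part in this cannot be told apart from that of the time.

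Factor V (F5), the cofactor of factor Xa, had the smallest p of the 3. Its 10:30 levels were 709, 657 and 725 CPM (WT) against 426, 374 and 259 CPM (α7HMZ). By 13:30 the WT livers stood at 419, 429 and 431 CPM, against 373, 364 and 360 CPM in the α7HMZ livers, and the 20:30 levels were 405, 402 and 417 CPM against 382, 361 and 347 CPM. The high level of WT livers at 10:30 was thus not seen in α7HMZ livers, and the log2 fold change between genotypes was -0.97 ± 0.13 at 10:30 (edgeR adjusted p = 4.26e-05), -0.22 ± 0.13 at 13:30 and -0.17 ± 0.13 at 20:30. The 10:30 difference of F5 held under all 30 alternative fits. The test of genotype by time gave F5 an adjusted p of 0.0299 (edgeR).

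Klkb1 was also high in WT livers at 10:30, with 264, 240 and 247 CPM in WT and 169, 173 and 166 CPM in α7HMZ livers at 10:30, against 143 to 151 and 138 to 155 CPM at 13:30. Its genotype difference was -0.56 ± 0.09 at 10:30 (edgeR adjusted p = 0.000295) and 0.01 ± 0.09 at 13:30. Ggcx measured 76.2, 72.7 and 72.8 CPM in WT and 62.8, 52.6 and 45.6 CPM in α7HMZ livers at 10:30, and 40.4, 47.4 and 41.8 against 51.5, 52.2 and 52.8 CPM at 20:30. It was thus lower in α7HMZ livers at 10:30 (-0.45 ± 0.12, edgeR adjusted p = 0.0142), and its 20:30 value of 0.27 ± 0.12 did not pass. F11 and Plg were also lower at 10:30 (-0.43 and -0.39), and 7 of 30 alternative fits lost each call.

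At 20:30 Vkorc1 joined the lower genes, with 145, 157 and 178 CPM in WT and 105, 112 and 99.0 CPM in α7HMZ livers. The groups were apart (-0.61 ± 0.11, edgeR adjusted p = 0.000829), and 1 of 30 alternative fits lost the call. At the other times its values were -0.13 and -0.10, and the test of genotype by time missed the threshold (edgeR adjusted p = 0.0715). Serpina10 was lower at 20:30 as well (-0.63 ± 0.16, edgeR adjusted p = 0.0101). It measured 235, 285 and 276 CPM in WT and 203, 161 and 148 CPM in α7HMZ livers, which did not overlap. Its call was lost in 4 of 30 alternative fits (edgeR adjusted p up to 0.134), both full quantile settings and the fit without the Rn45s-rich library and the 3 rich in Krt19 among them.

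**Figure D4:**
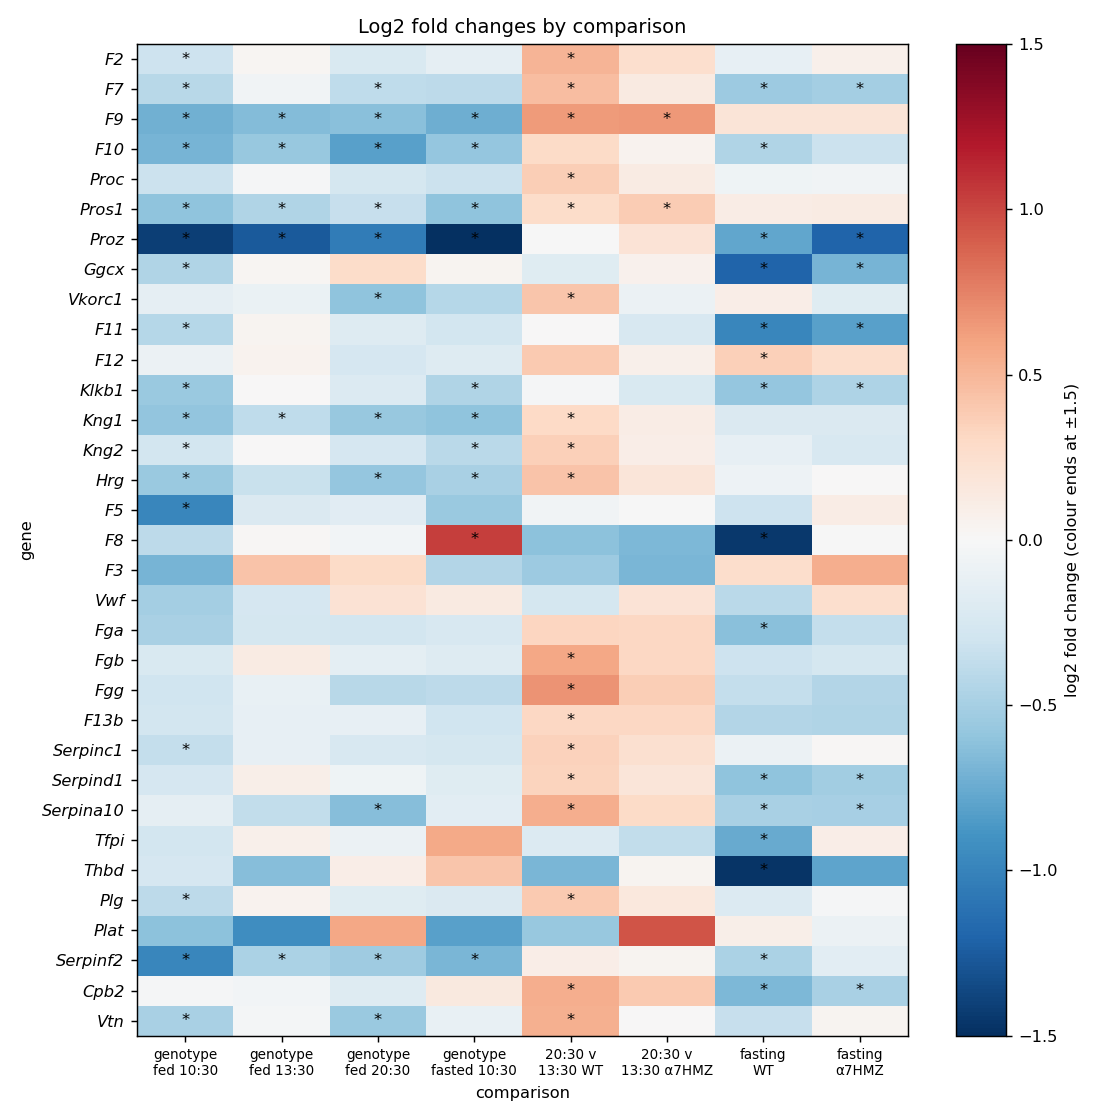
Log2 fold change (colour, ending at ±1.5, TMM scale) of each gene (y axis, grouped by role) in 8 comparisons (x axis); an asterisk marks an adjusted p under 0.05. The genotype columns are α7HMZ against WT and the fasting columns fasted against fed. Proz, F9, F10, Pros1, Serpinf2 and Kng1 carry an asterisk in all 4 genotype columns, of which Proz and F9 keep all under full quantile offsets, and the WT 20:30 column is mostly red, with 18 asterisks under TMM and 3 under full quantile offsets.

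Between 13:30 and 20:30, which were sequenced together, 18 of the 33 genes were higher at 20:30 in WT livers and 0 lower, against 11.6% and 9.98% of all tested genes. Unadjusted counts were 20 higher and 3 lower, and DESeq2 called 18 higher and 1 lower. Under both full quantile settings 3 were higher and 0 lower. Without single libraries the higher count went down to 8 (without WT 13:30 replicate 3), 9 (WT 20:30 replicate 3), 10 (WT 13:30 replicate 1) and 11 (WT 13:30 replicate 2). Under TMM the 116 genes above 1000 CPM had a median log2 fold change of 0.40 between these times, and the 8 coagulation genes among them 0.45. F9 and Cpb2 rose under every setting. F9 went from 169, 151 and 166 to 265, 232 and 253 CPM (0.63 ± 0.11, edgeR adjusted p = 0.0011), and Cpb2 from 307, 276 and 271 to 412, 364 and 462 CPM (0.54 ± 0.12, edgeR adjusted p = 0.00513). Of the larger TMM values, Fgg (0.68 ± 0.18) and Fgb (0.58 ± 0.17) lost their calls under both full quantile settings.

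Other gene groups moved between the same times in WT livers, where 11.6% of all tested genes were higher and 9.98% lower. Of 18 acute phase genes 9 were higher at 20:30 and 0 lower (median 0.63; 5 higher and 0 lower under full quantile offsets), and their summed level went from a range of 6869 to 7375 CPM to one of 12598 to 14537 CPM. Of 14 endothelial markers 4 were lower and 1 higher (median -0.34; summed 531 to 594 CPM, then 435 to 489 CPM). Of 6 bile duct markers 2 were higher and 0 lower (median 0.97), with summed levels of 6.01 to 7.46 CPM at 13:30 and 7.78 to 34.3 CPM at 20:30. In each of the 3 lists 0 genes were without counts. Without the Rn45s-rich library and the 3 rich in Krt19, 17 of the 33 coagulation genes were higher and 1 lower. The part of the acute phase and endothelial lists in the rise of the coagulation genes was not tested.

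In α7HMZ livers 2 genes were higher at 20:30, F9 and Pros1, and 0 were lower (3.16% and 2.05% of all tested genes). Beside them 7 of 18 acute phase genes and 3 of 6 bile duct markers were higher and 5 of 14 endothelial markers lower. Unadjusted counts were 6 higher and 3 lower, and DESeq2 called 4 higher and 0 lower. F9 went from 106, 98.4 and 106 to 177, 167 and 141 CPM (0.65 ± 0.11, edgeR adjusted p = 0.00157). In WT livers the F9 change was 0.63, and the difference between the genotypes' changes was 0.02 ± 0.16. Pros1 rose by 0.38 ± 0.09 (edgeR adjusted p = 0.0192), which 6 of 30 alternative fits lost. Whether the change between these times differed by genotype was tested in a comparison added after the data were seen, in which 0 genes changed more in one genotype in either direction (edgeR; 2 at an unadjusted p under 0.05, both with the smaller change in α7HMZ; 0.112% of all tested genes in each direction). Vtn and Vkorc1 were those 2, with differences of -0.52 ± 0.18 and -0.51 ± 0.15.

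After the 12-h fast 14 of the 33 genes were lower in WT livers and 1 was higher, against 10.6% and 12% of the 13103 genes tested. Unadjusted counts were 15 lower and 1 higher, and DESeq2 called 15 lower and 1 higher. The count of lower genes went to 8 without the second fed WT library and 9 without the third. It depended little on the scaling, with 13 lower and 1 higher under full quantile offsets and 14 lower and 0 higher with the GC step. Of all 13103 genes, full quantile offsets called 1308 lower and 1575 higher. With the GC step 1166 of 12317 genes were lower and 1352 higher. Here the median of all tested genes above 1000 CPM was 0.04, and that of the 8 coagulation genes -0.27. Ggcx, F11, Cpb2, Serpind1, Klkb1, Proz, F8 and Thbd were lower under every setting.

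Ggcx, through which all vitamin K-dependent proteins pass, went from 76.2, 72.7 and 72.8 CPM in fed to 34.4, 29.6 and 31.7 CPM in fasted WT livers, far apart, a log2 fold change of -1.21 ± 0.13 (edgeR adjusted p = 3.93e-05). F11, the contact protease that activates factor IX, went from 122, 108 and 118 to 56.2, 62.4 and 56.9 CPM (-0.98 ± 0.13, edgeR adjusted p = 0.000219). Its neighbour Klkb1, 4657 bases away on the same strand of chromosome 8, went from 264, 240 and 247 to 186, 184 and 130 CPM (-0.58 ± 0.14, edgeR adjusted p = 0.00904). All 3 genes were without overlap between fed and fasted livers. Such separation of 3 against 3 livers was common. Of 13103 tested genes, 3088 were lower and 2987 higher without overlap, and of the coagulation genes 21 were lower and 1 higher.

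Cpb2 went from 374, 348 and 367 to 222, 243 and 218 CPM (-0.67 ± 0.12, edgeR adjusted p = 0.00203), and Serpind1 from 754, 722 and 779 to 504, 538 and 436 CPM (-0.60 ± 0.13, edgeR adjusted p = 0.00403). Proz went from 432, 421 and 425 to 265, 290 and 185 CPM (-0.78 ± 0.18, edgeR adjusted p = 0.00738). Fed and fasted livers did not overlap for these genes. Fga (-0.63 ± 0.19), F7 (-0.54 ± 0.13), Serpina10 (-0.48 ± 0.15), Serpinf2 (-0.47 ± 0.15) and F10 (-0.45 ± 0.12) were lower too, and each of them lost its call in at least 1 of 24 alternative fits. F12, the factor that starts the contact pathway, was the gene that rose, from 391, 372 and 369 to 414, 495 and 535 CPM (0.35 ± 0.11, edgeR adjusted p = 0.0337), and 9 of 24 alternative fits lost it. F9 (0.19 ± 0.13) and Pros1 (0.11 ± 0.14), which were among the genes that differed by genotype, did not pass.

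Of the genes made largely outside hepatocytes, F8, Thbd and Tfpi fell in the same comparison. F8 measured 33.3, 29.7 and 32.3 CPM in fed and 18.1, 10.1 and 6.31 CPM in fasted WT livers (-1.45 ± 0.29, edgeR adjusted p = 0.00335). Thrombomodulin (Thbd), the endothelial receptor that turns thrombin towards protein C, went from 3.54, 4.99 and 6.83 to 1.91, 2.14 and 1.42 CPM (-1.47 ± 0.28, edgeR adjusted p = 0.00256), and Tfpi, the inhibitor of the tissue factor pathway, from 8.71, 8.99 and 8.38 to 7.22, 4.45 and 3.72 CPM (-0.75 ± 0.24, edgeR adjusted p = 0.0373). The Tfpi call was lost in 6 of 24 alternative fits. Vwf did not pass (-0.40 ± 0.23). Of 14 endothelial markers, 10 were lower in fasted WT livers and 0 higher, with a median of -0.79, and their summed level went from a range of 622 to 687 CPM to one of 313 to 473 CPM, with 0 markers without counts. Their part in the values of F8, Thbd and Tfpi was not tested. In whole liver, fewer cells of a type and less RNA per cell cannot be told apart. The 9 Kupffer cell markers had a median of -1.15, with 1 lower, and their summed level went from 286 to 379 CPM to 116 to 200 CPM. Of all tested genes 10.6% were lower in this comparison.

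**Figure D5:**
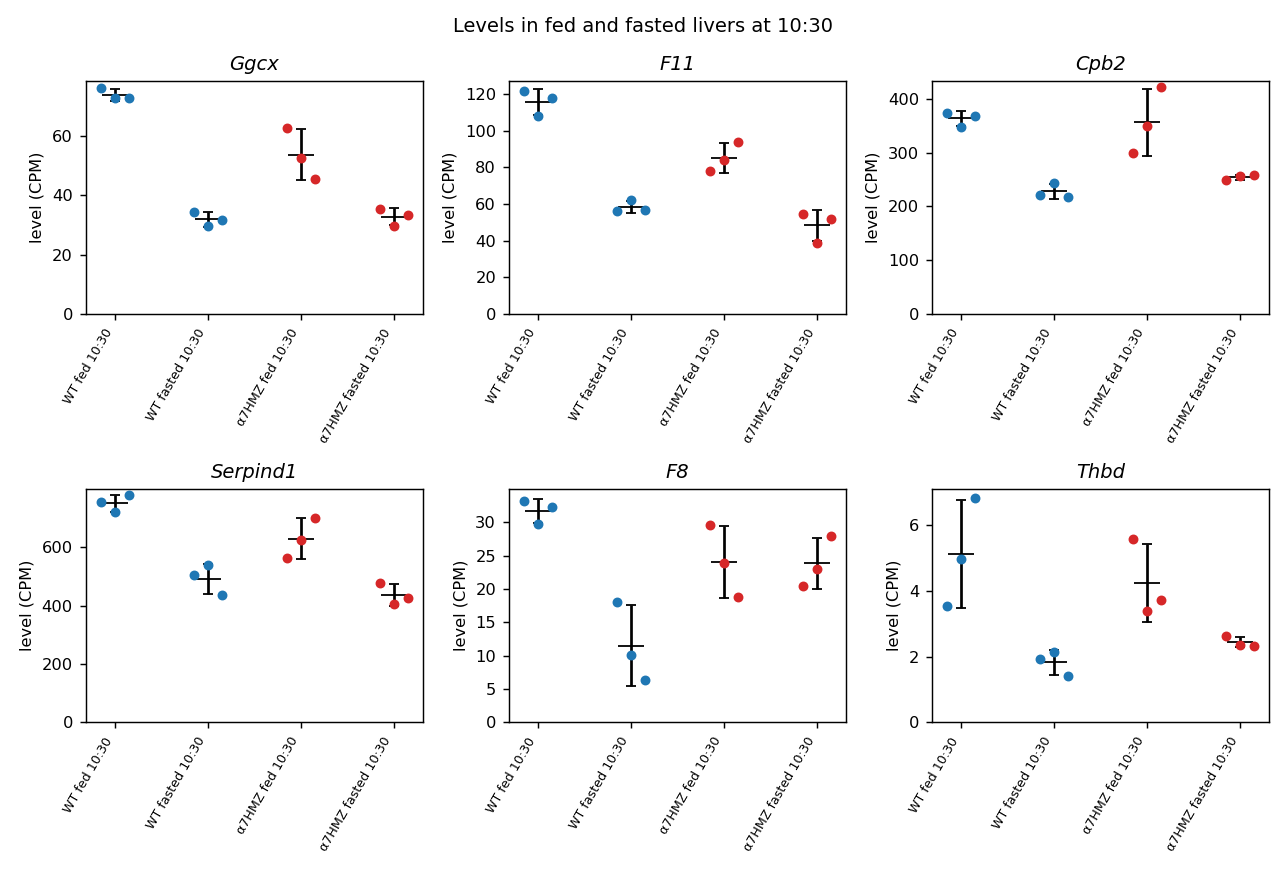
Level of 6 genes (y axis, CPM) in fed and fasted livers at 10:30 (x axis; blue WT, red α7HMZ; 3 livers each); the bar is the mean and the whiskers 1 SD. Ggcx and F11 are lower in fasted livers of both genotypes, whereas F8 is lower in fasted WT livers (6.31 to 18.1 CPM) and at 20.5 to 27.9 CPM in fasted α7HMZ livers. F8 did not pass the edgeR test of whether its change differed between genotypes. The fasted α7HMZ livers were on another flow cell than the other livers shown.

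In α7HMZ livers 8 genes were lower after the fast and 0 higher (3 to 9 lower when 1 library was left out, fewest without the second fasted α7HMZ library), against 5.9% and 6.68% of all tested genes, with 13 lower and 1 higher at an unadjusted p under 0.05 and 8 lower and 0 higher by DESeq2. Full quantile offsets gave 7 lower and 0 higher, against 844 and 897 of all 13103 tested genes. This comparison crosses flow cells, which cannot be told apart from the fast here. Proz went from 144, 184 and 150 to 66.3, 56.0 and 84.6 CPM (-1.20 ± 0.18, edgeR adjusted p = 0.000777), F11 from 78.0, 83.8 and 94.1 to 54.5, 38.9 and 51.6 CPM (-0.82 ± 0.13, edgeR adjusted p = 0.00121), and Ggcx from 62.8, 52.6 and 45.6 to 35.3, 29.8 and 33.5 CPM (-0.70 ± 0.13, edgeR adjusted p = 0.00263). These 3 were lower under every setting. Cpb2 (-0.49), Serpind1 (-0.53), F7 (-0.51), Serpina10 (-0.50) and Klkb1 (-0.47) were the others, and each lost its call in some alternative fits. F8 stood at 29.5, 23.8 and 18.8 CPM fed and 20.5, 23.1 and 27.9 CPM fasted (-0.005 ± 0.28), and 0 of the 14 endothelial markers passed the test.

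No gene of the set passed the test of whether its change with the fast differed between genotypes (edgeR, 0 higher and 0 lower; 3 higher at an unadjusted p under 0.05; DESeq2 1 higher and 0 lower). Of all tested genes 0.16% were higher and 0.0916% lower in this test. The largest value was that of F8, at 1.45 ± 0.40 (edgeR adjusted p = 0.174). Ggcx had 0.50 ± 0.18 (adjusted p = 0.253) and Tfpi 0.85 ± 0.34 (adjusted p = 0.287), while the 14 endothelial markers had a median of 0.84 with 0 called.

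Between fasted livers, 9 genes were lower in α7HMZ than in WT and 1 was higher, against 8.65% and 6.9% of all tested genes (13 lower and 2 higher at an unadjusted p under 0.05; DESeq2 12 lower and 1 higher). Under full quantile offsets 4 were lower (Proz, F10, F9 and Pros1) and 2 higher (F8 and Cpb2), against 1031 and 945 of all 13103 tested genes. The genotypes were on different flow cells here. Proz had its widest gap, with 265, 290 and 185 CPM in WT against 66.3, 56.0 and 84.6 CPM in α7HMZ livers (-1.85 ± 0.18, edgeR adjusted p = 2.18e-05). F9 measured 254, 267 and 196 against 143, 144 and 148 CPM (-0.73 ± 0.14, edgeR adjusted p = 0.00288), and F10 303, 327 and 376 against 227, 213 and 233 CPM (-0.58 ± 0.12, edgeR adjusted p = 0.00556). Neither gene overlapped between genotypes, and Proz, F9 and F10 held under every setting. Of all 13103 tested genes, 2185 were lower and 2190 higher without overlap between the fasted genotypes.

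Pros1 (-0.60 ± 0.14), Serpinf2 (-0.68 ± 0.15), Kng1 (-0.60 ± 0.12), Hrg (-0.49 ± 0.14), Klkb1 (-0.45 ± 0.14) and Kng2 (-0.41 ± 0.10) were the other lower genes. F8 was higher in α7HMZ livers, at 20.5, 23.1 and 27.9 CPM against 18.1, 10.1 and 6.31 CPM (1.04 ± 0.29, edgeR adjusted p = 0.0281), apart between genotypes, and 5 of 24 alternative fits lost the call. In the same livers 4 of 14 endothelial markers and 5 of 9 Kupffer cell markers were higher, with medians of 0.51 and 1.37. Of all tested genes 6.9% were higher. The summed endothelial level was 520 to 588 CPM against 313 to 473 CPM. The summed Kupffer level was 179, 202 and 843 CPM against 116, 135 and 200 CPM, so a single α7HMZ liver lay far above the rest. The part of these markers in the F8 value was not tested.

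Among 35 further genes of the pathway, 29 were tested in fed livers. Under TMM 13 were lower and 2 higher in α7HMZ livers, against 13.2% and 13.3% of all tested genes. Under full quantile offsets 6 were lower and 4 higher. Serpine2, which encodes protease nexin 1, an inhibitor of thrombin, had the largest fall (-2.08 ± 0.15, edgeR adjusted p = 4.74e-09), and the thrombin receptor F2r followed (-1.25 ± 0.10, edgeR adjusted p = 1.13e-08). Of the genes chosen after their values were seen, C4bp, the plasma partner of protein S, was lower as well (-0.87 ± 0.07, edgeR adjusted p = 3.36e-08). Fgl1 (0.52 ± 0.16, edgeR adjusted p = 0.0207) and Plgrkt, a plasminogen receptor (0.58 ± 0.14, edgeR adjusted p = 0.00364), were higher. Serpina1a to Serpina1e were all lower under TMM (-0.26 to -0.59), but these near-identical copies share reads and their values are uncertain. After the fast in WT livers 6 of the 29 were lower and 3 higher, against 10.6% and 12% of all tested genes. At 20:30 against 13:30 in WT livers 12 were higher and 0 lower under TMM, against 11.6% and 9.98% of all tested genes. Under full quantile offsets 2 were higher and 0 lower.

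Fibrinogen is also an acute phase product, and 18 acute phase genes were set beside it. In the fed average 4 were higher and 8 lower, against 13.3% and 13.2% of all tested genes. Their median was -0.19, and under full quantile offsets 5 were higher and 5 lower. Orm3 was higher (1.85 ± 0.22, edgeR adjusted p = 4.05e-06) and Saa4 lower (-0.99 ± 0.10, edgeR adjusted p = 3.93e-07). The hepatocyte list, 9 genes that include Serpina1a, had 5 lower and 0 higher in the fed average (median -0.26) and 0 lower and 3 higher under full quantile offsets (median 0.08). Of the lists for other cells, the fed average called 2 of 14 endothelial, 3 of 10 stellate, 1 of 3 pancreatic and 1 of 1 red cell markers lower. It called 1 of 6 bile duct markers higher, and 0 of 5 platelet and 0 of 9 Kupffer cell markers. Of all tested genes 13.2% were lower and 13.3% higher, so the endothelial and bile duct counts were near these shares. The red cell marker tested had a log2 fold change of -1.31.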

How the data were processed

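The 24 liver libraries were read from poly(A) RNA, single-end, at 75 bases. Per the labels and the methods, the authors aligned the reads to mm10 with TopHat2 2.1.1 and counted them per gene with HTSeq 0.6.1, and the deposited counts used here are raw whole-number counts per gene symbol. The kit did not mark strand. The deposited FPKM files were not used. The authors' GC and full quantile steps were imitated with offsets, since their package was not used here.

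Groups came from the labels. The members and gene lists were chosen with earlier results of these data known. All 33 genes were named, and other genes were the 2 with the smallest p of each list, unless said otherwise. edgeR 4.0.16 (R 4.3.3) filtered low counts by group, scaled by TMM and ran quasi-likelihood tests with Benjamini-Hochberg adjustment over all tested genes, once on the 18 fed libraries and once on the 12 at 10:30. All groups of a fit share an estimate of the spread. DESeq2 1.42.0, other scalings, other filters, other sets of libraries and leaving out each library were alternatives. Totals were 8545959 to 28445590 counts (median 18875060). No library pair within a group was a duplicate: chi-square divided by its degrees of freedom was at least 11.03 over genes of at least 20 counts. Pairs across groups were not compared in this way. On simulated counts for the fed average, 72% of 1.5-fold and 90% of 2-fold changes were recovered among 13334 genes, with 5.81% of calls false. The simulation changed 200 genes in random directions from TMM-scaled means. It thus held no shift with abundance, and it cannot show the errors of calls that depend on the scaling. Exon lengths and positions were matched by symbol for 21777 of 23411 genes and for all 33 members.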

Additional observations from a re-analysis of the deposited data

Results flagged for a closer look

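In 3 genes the difference between genotypes varied among the fed times by a test of that variation (edgeR quasi-likelihood test of genotype by time). The same test called 4.99% of all tested genes. F5 had an adjusted p of 0.0299, with log2 fold changes between α7HMZ and WT of -0.97 at 10:30, -0.22 at 13:30 and -0.17 at 20:30. Klkb1 had an adjusted p of 0.0383 in edgeR, with -0.56, 0.01 and -0.20 in that order. Ggcx had an adjusted p of 0.0424 in edgeR, with -0.45, 0.03 and 0.27. All 3 calls were lost when any single WT 10:30 library, the third WT library at 13:30 or the second α7HMZ library at 10:30 was left out. The 10:30 livers were sequenced on another flow cell than the later ones, so its part in these values cannot be told apart from that of the time.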

How the results depend on the processing

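Counts are of the 33 genes. The lower counts with full quantile offsets, and then with the GC step, were 5 and 6 in the fed average (5 and 7 higher), 9 and 10 at 10:30, 3 and 4 at 13:30 (4 and 3 higher), 4 and 4 at 20:30 (1 and 1 higher), and 4 and 4 in fasted livers (2 and 2 higher). For 20:30 against 13:30, 3 were higher in WT under both and 1 lower in α7HMZ under both. With the GC step, 0 were higher after fasting in WT and 1 in α7HMZ. Requiring an absolute log2 fold change of 1 left 1 lower gene in the fed average, at each fed time, in fasted livers and after fasting in α7HMZ, 3 lower and 0 higher after fasting in WT, and 0 higher for 20:30 in either genotype. Fitting only the compared groups gave 11 lower at 10:30, 7 at 20:30, 3 after fasting in α7HMZ and 4 lower with 0 higher in fasted livers, and for 20:30 11 higher and 2 lower in WT and 1 higher in α7HMZ. Without the 4 libraries highest in Rn45s or in the bile duct and pancreatic genes Krt19 and Ctrb1, 7 were lower at 20:30, and 1 was lower at 20:30 against 13:30 in each genotype. DESeq2 called 5 for genotype by time, 1 lower in WT and 4 higher in α7HMZ for 20:30, and 1 higher for genotype by fasting. With all 24 libraries in 1 fit, 1 was higher for 20:30 in α7HMZ and 0 after fasting in WT, and without a filter the latter was also 0. The causes were not tested.

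Leaving out 1 library gave 16 to 22 lower in the fed average, 9 to 19 at 10:30, 4 to 6 at 13:30, 9 to 12 at 20:30, and 0 to 5 for genotype by time. For 20:30 it gave 8 to 18 higher and 0 to 1 lower in WT, and 1 to 4 higher and 0 to 1 lower in α7HMZ. For fasting it gave 0 to 1 higher and 8 to 14 lower in WT and 3 to 9 lower in α7HMZ, with 0 to 2 higher and 6 to 12 lower between fasted livers and 0 to 1 higher for genotype by fasting. Replicate numbers did not pair the samples (correlations of -0.167 to 0.0897), and with the replicate block 0 genes were higher after fasting in WT and 18 lower in the fed average.

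Direction turned for these genes, with full quantile offsets and then the GC step. In the fed average the log2 fold changes were 0.16 and 0.15 for Cpb2, 0.22 and 0.23 for F2, 0.18 and 0.15 for Fga, 0.39 and 0.32 for Fgb, 0.11 and 0.09385 for Kng2, 0.20 and 0.24 for Plg, 0.12 and 0.0817 for Proc, 0.15 and 0.16 for Serpinc1, 0.24 and 0.21 for Serpind1, and 0.037 and 0.0451 for Vtn, and F12 had 0.18 with the GC step. At 10:30 they were 0.0611 and 0.04744 for F2 and 0.006235 and 0.0375 for Serpinc1. With the GC step, Kng1 had 0.0391 at 13:30 and Vtn 4.44e-04 at 20:30, and under full quantile offsets Kng1 had -0.0114 for 20:30 in WT.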
